A study of Rattus norvegicus with 12 samples.

Results

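The loci described here are the longest of the rat hippocampal transcriptome as the authors assembled it: stretches of genome of 300 kb or more that held at least 1 assembled gene tested by Cuffdiff, the authors' program for comparing expression. A locus is the interval that the deposited table gives for an assembled gene, and several assembled genes can carry the same interval. The rule found 515 such loci among 17079 tested loci, 3.02% of them. They carried 8649 of the 42839 tested assembled genes, 20.2%. The assembled gene with the largest mean of both groups is called the leading gene of its locus, and the remaining 8134 tested ones are called the other genes. A further 1897 assembled genes of such loci were not tested by Cuffdiff, none with a mean above 0.808 FPKM (fragments per kilobase of transcript, scaled to the mapped fragments of the group), and 3 loci held no tested gene at all.

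The animals were male Sprague-Dawley rats of 8 weeks, all of them adrenalectomised, so that both groups lacked the main source of circulating glucocorticoid. One group of 6 received corticosterone at 300 µg/kg and the other group of 6 received vehicle, and the hippocampi were harvested 1 h later. The table gives 1 pooled value per group for each assembled gene, which leaves the variation among rats unseen and gives no SD. No entry carries a gene symbol, so the loci are named by position and by the identifier of their leading gene, and the tissue could not be checked against marker genes. In bulk tissue, fewer cells of a type and less RNA per cell cannot be told apart.

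Corticosterone acts through the glucocorticoid and mineralocorticoid receptors, transcription factors that move to the nucleus on binding the hormone and bind DNA near their target genes, and the hippocampus is rich in both. Mammalian genes of such a span owe most of their length to introns, and many of them are active in neurons, where they encode synaptic adhesion molecules, ion channels, receptors and scaffold proteins. RNA polymerase II needs much longer to cross such a gene than a typical gene, so its full-length transcript can appear only later after a stimulus. Where several assembled genes share an interval, the span of the leading gene itself is not given and can be shorter than 300 kb.

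None of the long loci held an assembled gene called different between the groups. In the authors' deposited table, 0 of the 8649 tested genes at long loci had a q of 0.05 or less, against 0.345% of all tested assembled genes. Among leading genes alone, 0 of 515 passed in the authors' deposited table, against 0.667% of the leading genes of all tested loci. At an unadjusted p of 0.05 or less, Cuffdiff listed 10 leading genes of long loci, 1.94%, where 6.05% of all leading genes reached that p in the authors' deposited table. It listed 19 of all 8649 genes, or 0.22%, where the share over all tested genes was 2.92% in the authors' deposited table. These sets differ in make-up. Other genes were 94.0% of the tested genes at long loci, while 17079 of all 42839 tested genes were leading genes. Of the other genes of shorter loci, 1.2% reached that p and 0.193% were called in the authors' deposited table. The lowest q at any long locus was 0.204 in the authors' deposited table, and 3 genes had a q below 0.5. The closest called locus by length was shorter than the minimum: XLOC_023510 on chromosome 18 at 3317599 to 3555713, a locus of 238114 bp, rose from 4.14 FPKM with vehicle to 7.22 with corticosterone (q = 0.0165 in the authors' deposited table). It was the only called gene among loci of 200 kb or more.

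**Figure D1:**
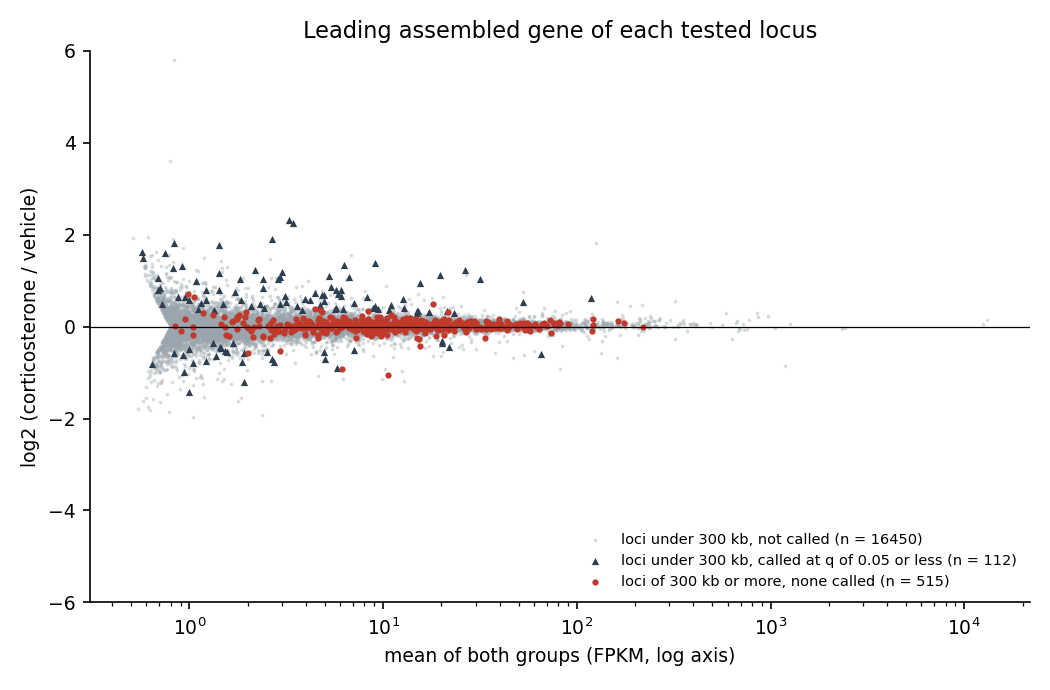
Log2 ratio of corticosterone over vehicle (vertical axis) against the mean of both groups in FPKM (horizontal log axis) for the leading assembled gene of each tested locus, with loci of 300 kb or more as red circles, called shorter loci as dark triangles (2 listed at 0 in a group are not drawn) and uncalled shorter loci as grey points. The 515 red circles gather around 0, and 4 of them differ by 1.5-fold or more.

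The long loci were mostly well expressed. Their leading genes had a median of 11.1 FPKM with vehicle (quartiles 5.79 and 20.6) and 11.5 FPKM with corticosterone (quartiles 5.91 and 21.2). The leading genes of the 16564 shorter loci had medians of 4.24 and 4.29 FPKM. A leading gene is the highest of its locus, and long loci had a median of 10 tested genes, shorter loci 1. At loci with 1 tested gene, the median mean was 5.43 FPKM at long loci and 2.73 at shorter ones. With 6 to 20 tested genes it was 12.4 and 9.65 FPKM, and with 21 or more 12.1 and 11.3 FPKM. On this per-length scale, 511 of the 515 leading genes had a mean of at least 1 FPKM. Length ranged from 300095 to 2233851 bp with a median of 425770 bp. It was only loosely related to level, with a Spearman correlation of 0.12 across the 515 loci, which share their libraries and scaling.

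The most abundant leading gene was XLOC_048517, the only tested gene of chromosome 7 at 50084061 to 50639409, with 221.0 FPKM with vehicle and 220.4 with corticosterone. Next came XLOC_048814, also alone at its locus on chromosome 7 at 136526462 to 136854200, with 170.8 and 180.1 FPKM. On chromosome 1 at 194854864 to 195335963, XLOC_001454 had 156.4 FPKM with vehicle and 170.7 with corticosterone, 1.09-fold higher. None of these 3 genes differed by more than 1.09-fold between the groups. XLOC_051535, on chromosome 8 at 51858776 to 52201074, had 113.9 and 127.9 FPKM, a 1.12-fold higher value and the largest ratio of the 8 most abundant (p = 0.358 in the authors' deposited table). XLOC_027898 on chromosome 2 at 231224423 to 231711595 had 118.9 FPKM with vehicle and 122.2 with corticosterone. XLOC_015145 on chromosome 14 at 114126742 to 114484141 was at 122.9 and 115.8 FPKM, and it was with XLOC_048517 one of the 2 that had a lower value with corticosterone. The remaining pair, XLOC_045194 on chromosome 6 at 8316757 to 8729782 and XLOC_021737 on chromosome 17 at 5897555 to 6245831, had ratios of 1.03 and 1.05. Their unadjusted p lay between 0.291 and 0.966 for all 8 in the authors' deposited table.

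At the longest loci both groups had almost the same values. The longest was on the X chromosome at 51285492 to 53519343, where XLOC_056817 was at 14.0 FPKM with vehicle and 13.8 with corticosterone. On chromosome 5 at 92862088 to 94503755, a locus of 1641667 bp, XLOC_041226 had 44.5 and 42.5 FPKM. XLOC_048615 on chromosome 7 at 86698342 to 88071619 had 12.8 and 12.6 FPKM. In all 3 the corticosterone value was the lower one, by at most 1.05-fold. XLOC_041127, on chromosome 5 at 51649709 to 52968025, had 8.80 FPKM with vehicle and 8.85 with corticosterone. XLOC_037051 on chromosome 4 at 91234789 to 92516772 was at 7.43 and 7.35 FPKM, and XLOC_051888 on chromosome 8 at 7812412 to 9047423 had 3.55 and 3.68 FPKM. The p of these 6 leading genes ranged from 0.727 to 0.978 in the authors' deposited table.

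The 3 loci just inside and the 3 just outside the length minimum differed by at most 1.16-fold between the groups. Just inside, XLOC_023652 on chromosome 18 (59096311 to 59396406) had 34.1 FPKM with vehicle and 34.3 with corticosterone. XLOC_027455 on chromosome 2 (19852687 to 20153360) had 2.57 and 2.22 FPKM, and XLOC_054865 on chromosome 9 (61228745 to 61529637) had 4.52 and 4.81 FPKM. Just outside, XLOC_009659 on chromosome 11 (45031674 to 45331397) had 5.08 and 4.62 FPKM, XLOC_052193 on chromosome 8 (105737261 to 106036823) 11.0 and 11.7 FPKM, and XLOC_006997 on chromosome 10 (21697415 to 21996938) 10.0 and 9.76 FPKM.

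Across the long loci, the leading genes had a median log2 ratio of 0.019 (quartiles -0.028 and 0.074; positive means higher with corticosterone), where all tested assembled genes had 0.0070. Of the 515 leading genes, 318 had a higher value with corticosterone, 61.7%, and 54.4% of the leading genes of all tested loci did. When shorter loci were taken from the same 10 bins of mean value, 59.8% of them had the higher value with corticosterone. With the bins also split by the number of tested genes at the locus, 62.8% of shorter loci did, so the direction of that difference turned. The median log2 ratio, averaged over the bins, was 0.020 at long loci and 0.019 at shorter loci of the same level, a difference of 0.00047. Its sign was not stable across the settings tried.

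The differences between groups were small at long loci. The median size of the log2 ratio was 0.053, with quartiles of 0.025 and 0.10. Averaged over the 10 bins, it was 0.057 at long loci and 0.065 at shorter ones, and the long loci had the lower median in 9 of the 10 bins. With the bins also split by the number of tested genes, the medians were 0.061 and 0.065. A ratio of 1.2-fold or more was found at 16 long loci, 3.11%, where 12.8% of all tested loci and, in the same bins of level, 5.20% of shorter loci reached it (4.38% with the split by number of tested genes). A ratio of 1.5-fold or more was found at 4 long loci, 0.777%, against 3.04% of all tested loci. The share of shorter loci called in the same bins was 0.558% in the authors' deposited table, against 0% of long loci. Because loci are not replicates, no test was put on these differences.

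The deposited p-values were also higher at long loci. In the same bins of level, the median p was 0.685 at long loci and 0.55 at shorter loci in the authors' deposited table. Also split by the number of tested genes, it was 0.670 and 0.592, a smaller gap. Dividing the log2 ratio by the deposited test statistic gives the log2 difference that corresponds to 1 unit of that statistic. The quotient is larger where a given difference came with a smaller statistic. Its median, averaged over the bins, was 0.328 at long loci and 0.25 at shorter ones, and it was higher at long loci in all 10 bins. No label or header says how Cuffdiff formed that statistic, and the deposited p did not follow it alone. XLOC_018538 had a statistic of -0.284 and a p of 0.487 in the authors' deposited table. For XLOC_020174 the statistic was -0.261 and the p 0.155 in the authors' deposited table. The quotient therefore does not show how much a difference counted in the calls. With the bins also split by the number of tested genes, the quotients were 0.335 at long loci and 0.279 at shorter ones, a narrower gap in the same direction. Among leading genes with a ratio of at least 1.2-fold and a mean of at least 1 FPKM, 0 of 15 at long loci and 95 of 1261 at shorter loci (7.53%) were called in the authors' deposited table. That comparison is not matched for level, and the shorter loci in it had the lower median mean, 1.95 against 4.82 FPKM.

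**Figure D2:**
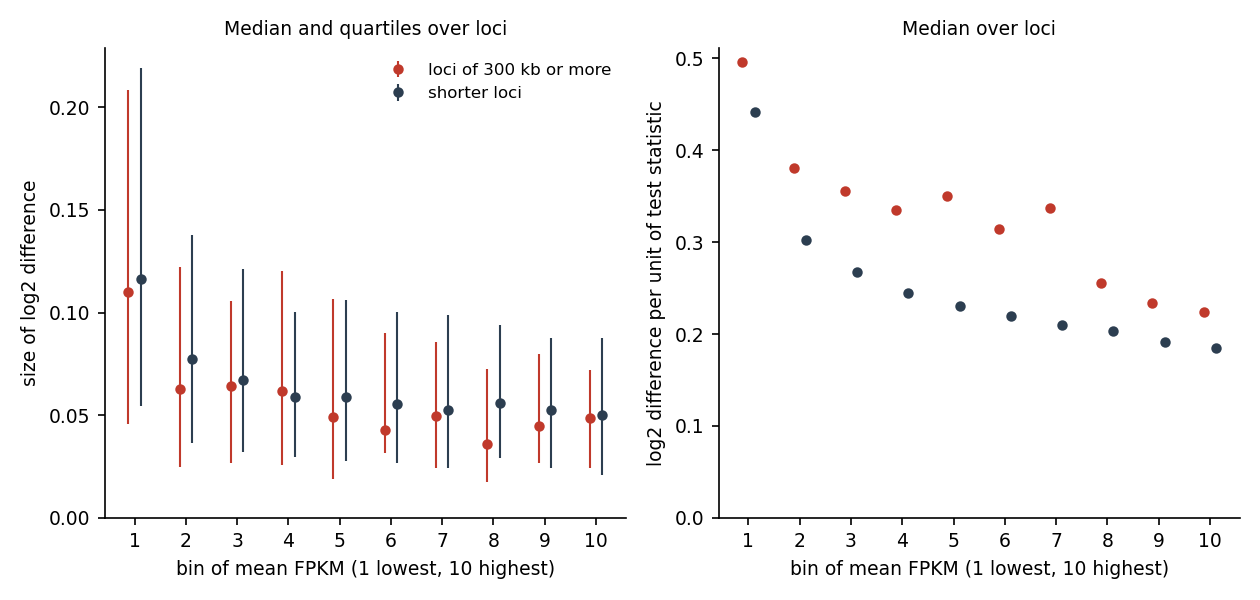
Left, size of the log2 ratio between the groups (median as points, quartiles as bars) in 10 bins of mean FPKM set at the deciles of the long loci, and right, median log2 difference per unit of the deposited test statistic in the same bins, with loci of 300 kb or more in red and shorter loci in dark blue. The red points lie below the blue in 9 of 10 bins on the left and above them in all 10 on the right.

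The share of called loci was below that of all tested loci in each length class from 50 to 300 kb, and also under 1 kb, where it was 0.127%. Of the leading genes of loci from 1 to 10 kb, 0.958% were called in the authors' deposited table. From 10 to 50 kb, 0.87% were called in the authors' deposited table, 0.245% of those from 50 to 100 kb, 0.362% from 100 to 200 kb and 0.21% from 200 to 300 kb. The share with an unadjusted p of 0.05 or less was 2.73% in that last class. It was 2.25% for 222 loci of 300 to 400 kb and 2.59% for 193 loci of 400 to 600 kb, and 0 of the 100 longer loci reached it in the authors' deposited table. The median p went from 0.523 at 10 to 50 kb to 0.747 at 600 to 1000 kb and 0.834 at the 21 loci of 1000 kb or more. Level and the number of assembled genes moved with length as well. The median mean was 5.29 FPKM at 10 to 50 kb and 13.9 FPKM at the longest class, and the median number of tested genes was 1 and 24. Their part in the result beyond the bins above was not tested.

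**Figure D3:**
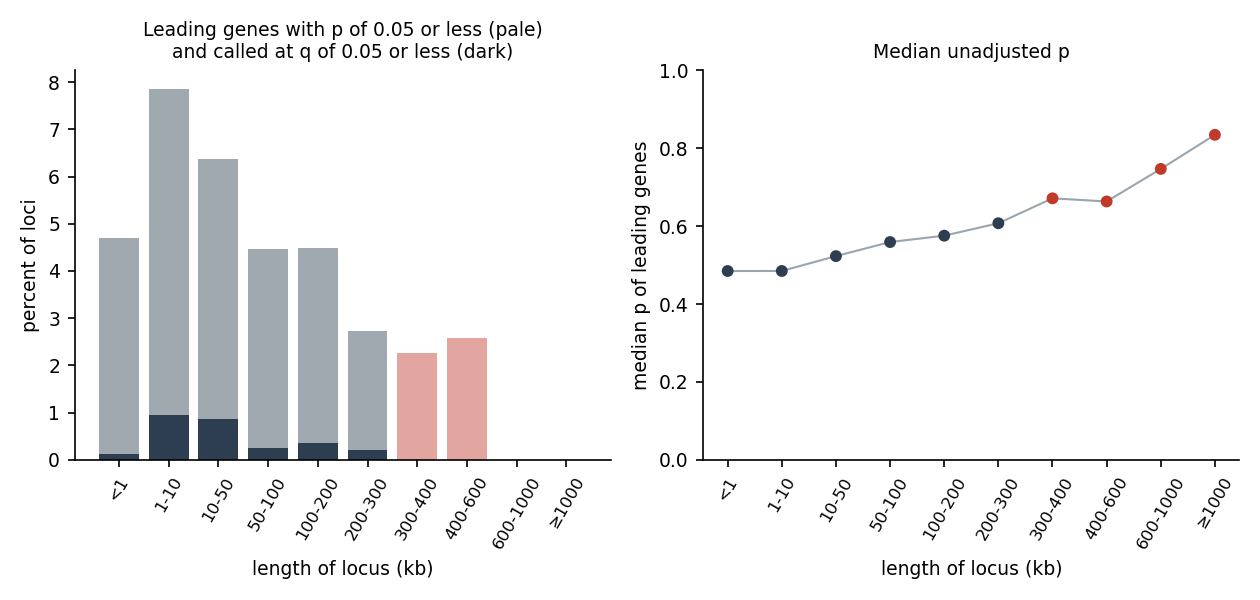
Left, percent of loci in each class of length (kb) whose leading gene had an unadjusted p of 0.05 or less (pale bars) or was called at a q of 0.05 or less (dark bars), and right, median p of the leading genes, where red marks the 4 classes of 300 kb or more. No dark bar stands in those classes, and the median p reaches 0.834 at loci of 1000 kb or more.

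The leading genes with the largest differences did not pass the test, and their 2 values are given as a description. Among those with a mean of at least 1 FPKM, XLOC_036924 on chromosome 4 at 41364446 to 41874776, alone at its locus, had 0.82 FPKM with vehicle and 1.29 with corticosterone, the highest ratio at 1.57-fold (p = 0.0777 in the authors' deposited table). It reached the mean of 1 FPKM through the corticosterone value, and with a pseudocount of 1 FPKM its log2 ratio of 0.65 became 0.33, below that of XLOC_020174 at 0.47. XLOC_020174, on chromosome 16 at 24997434 to 25856842, had 15.1 and 21.2 FPKM, a 1.41-fold higher value, but the next most abundant gene of that locus, XLOC_019408, had 17.7 FPKM with vehicle and 17.6 with corticosterone, the higher of the 2 with vehicle. XLOC_006437 on chromosome 10 at 38104216 to 38538153 was at 3.83 and 5.02 FPKM, and 19 of its 21 other genes were also higher with corticosterone. The other genes thus leaned the same way at XLOC_006437, while 22 of the 60 others did at XLOC_020174.

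Further down the same list, XLOC_033303 on chromosome 3 at 44892402 to 45210892 had 4.16 FPKM with vehicle and 5.33 with corticosterone, with 4 of its 10 other genes higher. XLOC_018538, on chromosome 15 at 61069280 to 61438365, had 7.38 and 9.37 FPKM. A second gene of almost the same vehicle level there, XLOC_018537, went the other way, with 7.39 FPKM with vehicle and 5.98 with corticosterone. XLOC_018538 thus led its locus through its corticosterone value. XLOC_032905 on chromosome 3 at 114342760 to 114652005 was at 4.29 and 5.35 FPKM, and it too led through its corticosterone value. The 1 other gene there had a mean of 4.65 FPKM and a log2 ratio of 0.13, so its vehicle value was the higher one. XLOC_013170 on chromosome 13 at 14376582 to 15396348 had 1.74 and 2.16 FPKM. The p of XLOC_033303, XLOC_018538, XLOC_032905 and XLOC_013170 lay between 0.115 and 0.487 in the authors' deposited table.

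The lowest p of any gene at a long locus belonged to XLOC_011521, on chromosome 12 at 28714198 to 29242956. It had 19.4 FPKM with vehicle and 24.0 with corticosterone, a 1.24-fold higher value (p = 0.00115, q = 0.204 in the authors' deposited table). The 1 other gene there, XLOC_012431, had 2.73 and 2.83 FPKM. A called locus lies 34990 bp away at 28650115 to 28679208, where the called gene rose from 1.18 to 1.51 FPKM (q = 0.0306 in the authors' deposited table). In all, 5 long loci lay within 100 kb of a called locus, 0.971% of them, against 1.89% of the shorter loci without a call. At all 5 the leading gene had a higher value with corticosterone, and at 4 of them the called neighbour was higher too. Of the 311 shorter loci as near, 198 had a higher value, and 84 of the 114 called leading genes were higher, so the count of 4 in 5 is near the overall share. XLOC_009715 on chromosome 11 at 69605485 to 70025127, only 963 bp from a called locus, had 69.0 FPKM with vehicle and 75.9 with corticosterone. XLOC_033283 on chromosome 3 at 29410294 to 29802808 had 6.98 and 7.40 FPKM, although the called neighbour at 29856790 to 30001316 fell from 7.61 to 5.29 FPKM. The leading genes XLOC_031545 and XLOC_007421 had ratios of 1.10 and 1.02. The called neighbour of XLOC_031545 is listed at 0 with vehicle and at 1.44 FPKM with corticosterone.

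The 10 leading genes whose unadjusted p did not exceed 0.05 split into 5 higher and 5 lower with corticosterone. Besides XLOC_011521 and 3 genes described next, they included XLOC_000392 on chromosome 1 at 137893489 to 138312494, with 0.75 FPKM with vehicle and 1.22 with corticosterone (p = 0.0023, q = 0.346 in the authors' deposited table). The remaining 5 were better expressed and differed by 1.12 to 1.16-fold. XLOC_041177 on chromosome 5 at 62275910 to 62622529 was at 37.1 FPKM with vehicle and 41.7 with corticosterone, XLOC_006675 on chromosome 10 at 80787952 to 81297844 at 4.91 and 5.69 FPKM, and XLOC_000886 on chromosome 1 at 6451486 to 6970651 at 8.62 and 10.03 FPKM. On the lower side, XLOC_019410 on chromosome 16 at 28372326 to 28716798 was at 21.9 FPKM with vehicle and 19.4 with corticosterone, and XLOC_027353 on chromosome 2 at 229170725 to 229497800 had 10.4 and 9.12 FPKM. None of these 5 passed the q threshold, and their levels ran from 4.91 to 41.7 FPKM.

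Of the 8 leading genes with the lowest ratios, XLOC_013463 on chromosome 13 at 12255139 to 12846536 had 14.4 FPKM with vehicle and 6.95 with corticosterone, a 2.07-fold lower value (p = 0.0478, q = 0.999 in the authors' deposited table). The 1 other gene of that locus, XLOC_012945, had 4.35 and 4.45 FPKM. XLOC_037345 on chromosome 4 at 22133382 to 22587717 had 8.00 and 4.20 FPKM, a 1.91-fold lower value, yet its p was 0.577 in the authors' deposited table. Its 20 other genes had a median log2 ratio of -0.045, and 9 of them were higher with corticosterone. XLOC_037345 led its locus through its vehicle value. With corticosterone it was below XLOC_037338, another gene of that locus, at 6.14 FPKM.

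At XLOC_048295, on chromosome 7 at 133645943 to 134004602, the locus leaned as a whole. The leading gene was at 2.40 FPKM with vehicle and at 1.61 with corticosterone, a 1.49-fold lower value (p = 0.0452 in the authors' deposited table), and all 17 other genes were lower as well, with log2 ratios from -0.99 to -0.39. Those 17 were weakly expressed, at 0.82 to 1.17 FPKM with vehicle and 0.48 to 0.78 with corticosterone. Their p ran from 0.0145 to 0.655 in the authors' deposited table. XLOC_001720 on chromosome 1 at 251757252 to 252100936 was at 3.46 and 2.40 FPKM, and its 1 other gene had 1.23 and 0.91 FPKM. XLOC_029711 on chromosome 2 at 120871309 to 121217368 had 17.9 and 13.3 FPKM, with 8 of 25 other genes higher. It led through its vehicle value, since XLOC_027099 there had 13.5 FPKM with corticosterone. The last 3 of the 8 largest lower values were XLOC_003523 on chromosome 1 (16.8 and 13.93 FPKM, against 14.9 and 13.97 for XLOC_000359 there), XLOC_056870 on X (2.83 and 2.38 FPKM) and XLOC_024517 on chromosome 18 (36.6 and 30.9 FPKM). None of these differences passed the q threshold, and only those of XLOC_013463, XLOC_048295 and XLOC_029711 had an unadjusted p of 0.05 or less in the authors' deposited table.

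**Figure D4:**
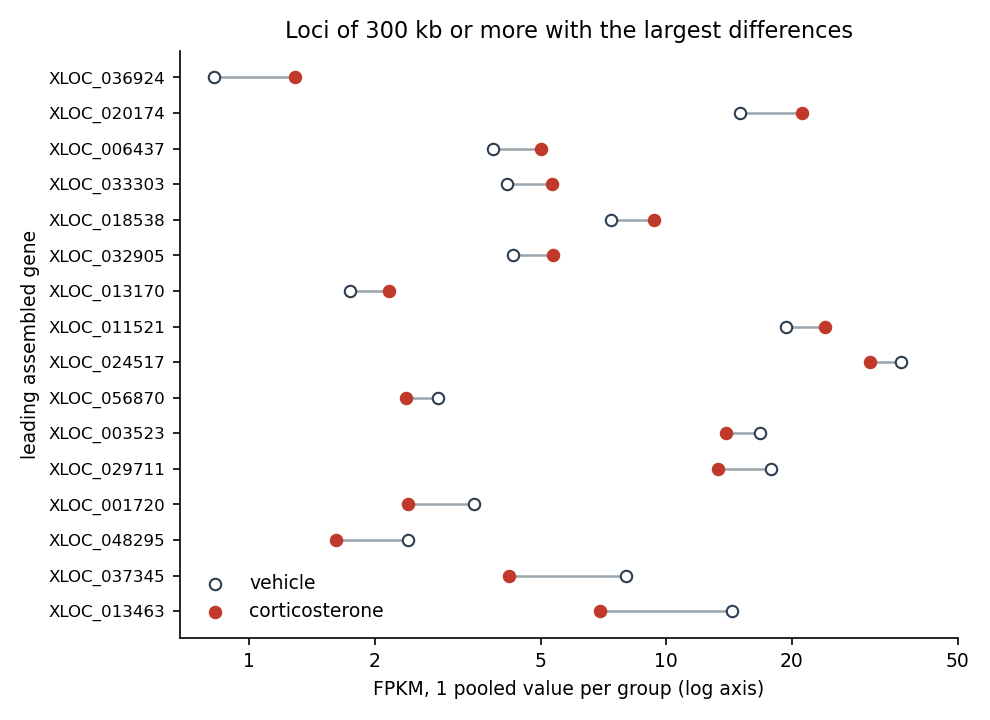
Pooled FPKM (log axis) with vehicle (open circles) and corticosterone (red circles) for the 16 leading genes of loci of 300 kb or more that differed most, 8 higher and 8 lower with corticosterone, among those with a mean of at least 1 FPKM. The widest gap is that of XLOC_013463, from 14.4 to 6.95 FPKM, and no gene shown was called.

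Long loci carried many assembled genes each. The median number of tested genes was 10, and 263 loci had at least 10, 43 had at least 50 and 100 had a single one. Most were found at XLOC_041226 on chromosome 5, with 135 tested genes, of which 61 were higher and 74 lower with corticosterone. XLOC_054811 on chromosome 9 at 31273459 to 32022543 had 129, of which 48 were higher, with 13.5 FPKM in each group for the leading gene. The 94 genes of XLOC_041127 on chromosome 5 were higher in 43 cases, the 93 of XLOC_000453 on chromosome 1 at 161152349 to 161885211 in 65, and the 89 of XLOC_041080 on chromosome 5 at 15730936 to 16139635 in 37. At the 415 loci with more than 1 tested gene, the leading gene had a median of 3.26 times the mean value of the second. At 88 of them the second reached at least 50% of the leading value.

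The other genes had a distinct place in the assembly. The identifiers run 3 times along each of chromosomes 1 to 20 and X, and no label or header says what separates these passes. Of the 8134 other genes at long loci, 7823 (96.2%) carried identifiers of the last pass, against 23 of the 515 leading genes (4.47%). At shorter loci 31.1% of leading genes and 88.6% of other genes were in that pass. Its 7823 members at long loci were weakly expressed, with a median mean of 1.76 FPKM, and had a median p of 0.861 in the authors' deposited table. The other genes of that pass at shorter loci were as weak, with a median mean of 1.62 FPKM, and had a median p of 0.767 in the authors' deposited table. The 23 leading genes of the last pass had a median size of the log2 ratio of 0.13, larger than in the first pass (0.054) and the second (0.046). Of the 16 leading genes with the largest differences, 6 were among these 23, XLOC_013463 and XLOC_020174 included. At shorter loci too, leading genes of the last pass had the larger median size, 0.12 against 0.069 in the first pass and 0.070 in the second.

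Leading and other genes leaned to different sides, but they were not matched for level. At the 415 loci with both, the leading gene was higher with corticosterone at 253 (61.0%), while the median of the other genes was above 0 at 181 (43.6%). The median of the others was below the leading gene at 254 of 415 loci, with a median difference of -0.032 on the log2 scale (quartiles -0.11 and 0.049). At shorter loci the corresponding difference was -0.018 over 4360 loci. Counted singly, 47.8% of the 8134 other genes were higher with corticosterone, against 51.1% of the other genes of shorter loci. The other genes at long loci had a median mean of 1.79 FPKM. In the lowest bin of level, 0.84 to 3.13 FPKM, 48.1% of the leading genes of long loci were higher with corticosterone. At shorter loci 46.0% of leading genes were higher in that bin and 66.9% in the highest bin. The part of level in the contrast was not tested. The log2 ratios of leading and other genes were weakly related across the 415 loci, with a Pearson correlation of 0.18 and a Spearman correlation of 0.29. The same libraries lie behind all points, and genes of a locus can share reads.

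An unadjusted p of 0.05 or less was reached by 9 of the 8134 other genes, 0.111%, against 1.2% of the other genes of shorter loci in the authors' deposited table. Single other genes gave the widest ratios, at low values. XLOC_015112 on chromosome 14 at 94254879 to 94625692 was at 0.34 FPKM with vehicle and 2.08 with corticosterone, while XLOC_045956 on chromosome 6 at 29178846 to 29525816 had 0.18 and 1.02 FPKM. Their p was 0.0827 and 0.142 in the authors' deposited table. The widest lower value with both groups above 0 was that of XLOC_024522 on chromosome 18, with 2.25 FPKM with vehicle and 0.65 with corticosterone. XLOC_031387 on chromosome 2 at 264864328 to 265402712 is listed at 0 in the corticosterone group and at 0.85 FPKM in the vehicle group (p = 0.0801 in the authors' deposited table).

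At a few long loci the other genes leaned to 1 side together, and these were singled out after their values were seen. Among the 263 loci with at least 10 tested genes, 10 had at least 90% of them higher with corticosterone and 6 had at most 10% higher, 3.80% and 2.28%. At the 507 shorter loci with at least 10 tested genes, 66 and 37 loci did, 13.0% and 7.30%. The shorter loci had fewer genes each, a median of 14 against 21, and the part of that in the shares was not tested. By size, the median of the other genes differed by 1.2-fold or more at 23 long loci (8.75%), 9 higher and 14 lower, and at 97 shorter loci (19.1%).

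The clearest case was on chromosome 14 at 38630645 to 39113038. The leading gene, XLOC_015242, had 22.3 FPKM with vehicle and 21.1 with corticosterone, slightly lower. All 30 other genes were higher with corticosterone, with log2 ratios from 0.30 to 0.94 and a median of 0.63. Their median level was 4.84 FPKM with vehicle and 7.56 with corticosterone, and none had a p below 0.185 in the authors' deposited table. A similar split was seen on chromosome 13 at 96768558 to 97206829, where XLOC_013379 had 4.56 and 4.88 FPKM and all 18 other genes were higher, with a median log2 ratio of 0.56. On chromosome 17 at 46351897 to 46888935, XLOC_021841 had 11.9 and 12.0 FPKM, and all 11 other genes were higher with a median of 0.26. At XLOC_044929 on chromosome 6 at 60374441 to 60733507, 51 of 54 other genes were higher. In these 4 loci the leading gene differed by at most 1.07-fold between the groups.

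At the 4 loci with the lowest share of higher genes, the leading gene was lower with corticosterone too. That share counts the leading gene itself, so where no gene was higher its direction was fixed by the choice of loci. XLOC_009608, on chromosome 11 at 15655607 to 16147135, stood at 16.1 FPKM with vehicle and 13.6 with corticosterone, and all 33 other genes were lower, with a median log2 ratio of -0.39. XLOC_033550 on chromosome 3 at 129037496 to 129357739 was at 7.85 and 6.65 FPKM, and 23 of its 24 other genes were lower. XLOC_017160 on chromosome 15 at 110113901 to 110612678 had 6.00 and 5.62 FPKM, with all 12 other genes lower. XLOC_048295, described above, was the fourth. No gene of the 8 loci was called, and the genes of a locus are not independent of each other.

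**Figure D5:**
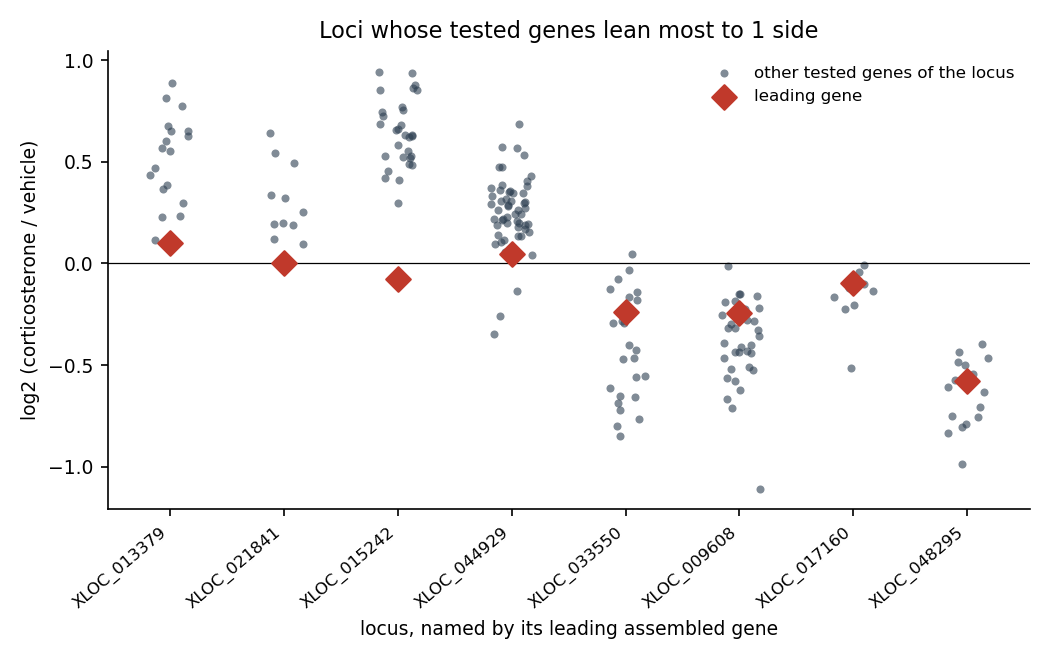
Log2 ratio of corticosterone over vehicle for every tested gene at the 4 loci with the highest and the 4 with the lowest share of genes higher with corticosterone, among loci of 300 kb or more with at least 10 tested genes. Diamonds are leading genes and dark points other genes; at XLOC_015242 all 30 other genes lie between 0.30 and 0.94 while the leading gene lies just below 0.

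On chromosome 18 at 31806576 to 32208157 the lean was wider in a stretch of the identifiers. The leading gene, XLOC_023806, stood at 8.29 FPKM with vehicle and 8.56 with corticosterone. Of its 40 other genes, 35 were higher with corticosterone, with a median log2 ratio of 0.64, and 3 of them had an unadjusted p of 0.05 or less in the authors' deposited table. These were XLOC_024450, with 1.61 and 2.79 FPKM (p = 0.00195, q = 0.305 in the authors' deposited table), XLOC_024448 with 1.31 and 2.33 FPKM, and XLOC_024443 with 1.54 and 2.53 FPKM. In the order of their identifiers, the first 20 had median values of 1.25 FPKM with vehicle and 1.42 with corticosterone, and 15 were higher. The last 20 had 1.36 and 2.36 FPKM, and all 20 were higher, so the medians of the log2 ratios were 0.23 and 0.78. Identifiers follow the start of the loci within each pass, but the table gives no position within a locus, so whether they follow it there is not known.

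Every run of at least 20 other genes in 1 pass was split in the middle in the same way. Over 131 runs, the median log2 ratio of the later genes less that of the earlier ones had quartiles of -0.074 and 0.082 and a range from -0.63 to 0.58. A size of at least 0.4 was reached by 6 runs. The widest was at XLOC_025605 on chromosome 19 at 53799657 to 54153734, where 13 of the first 14 other genes and 3 of the last 14 were higher with corticosterone, while the leading gene was at 13.1 FPKM with vehicle and 12.9 with corticosterone. At XLOC_036919 on chromosome 4 at 34282530 to 34614792, 3 of the first 12 and 9 of the last 13 were higher. The lowest p in those 2 runs was 0.124 and 0.395 in the authors' deposited table.

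The authors' list of different transcripts touched the long loci once. Of its 122 transcripts, 1 spanned a locus of 300 kb or more, on chromosome 10 at 96229600 to 96585500, with the higher of the 2 score codes used in the list. For scale, long loci were 3.02% of all tested loci and carried 20.2% of all tested genes. The only tested gene of that locus, XLOC_007407, had 27.1 FPKM with vehicle and 29.0 with corticosterone, 1.07-fold higher (p = 0.243, q = 0.999 in the authors' deposited table). The list is of transcripts and the table of genes, so the entries need not match.

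Long loci were found on chromosomes 1 to 20 and X, from 2.04% of the tested loci of chromosome 12 to 4.54% of those of chromosome 4. The leading gene was higher with corticosterone at 9 of the 11 long loci of chromosome 12, 22 of 28 on chromosome 6 and 18 of 23 on chromosome 17. The lowest shares were 6 of 15 on both chromosome 11 and X. These are the ends of the range over chromosomes, picked after the values were seen, and 61.7% of all 515 leading genes were higher. Length itself was hardly related to the ratio among the 515 loci, with a Spearman correlation of -0.038 for the log2 ratio and -0.066 for its size. The number of tested genes at a locus had a Spearman correlation of 0.25 with the deposited p of the leading gene and 0.34 with its log2 difference per unit of the test statistic.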

How the data were processed

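Hippocampal RNA of 6 corticosterone-treated and 6 vehicle-treated rats was sequenced, and the groups come from the sample titles. The treatment is corticosterone in the titles and the protocol, which are followed here, and cortisone in the source names. The submitters' processing notes name Cuffdiff 2.2.1.3, Cufflinks 2.2.1.0, TopHat 0.9 and Bowtie2 0.6, with build rn5. For scaling, strand setting and dispersion model nothing is stated. The table holds 106 entries on scaffolds with KL or AABR07 names, which are those of rn6, so positions are printed as deposited and are best read as rn6.

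Per the file headers, the gene table deposited by the authors holds 1 FPKM value per group and assembled gene, a log2 fold change, a test statistic (a score), p-values and q-values. The transcript list deposited by the authors holds a score code. The log2 fold change in the table deposited by the authors is vehicle over corticosterone and matched the FPKM values within 0.001 at all 42836 tested entries with both values above 0; here log2 ratios are corticosterone over vehicle, computed from both FPKM values without a pseudocount. A length is end minus start, and a gene is called at a deposited q of 0.05 or less. With 1 value per group no new test was run, every p and q is Cuffdiff's own, and read depth per sample is unknown.

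Shorter loci were matched in 10 bins of mean FPKM at the deciles of the long loci, using every shorter locus of a bin. The calculations were tested on simulated data. Named loci are those with the 8 highest means, the 6 longest, the 5 with most tested genes, the 8 highest and 8 lowest ratios among means of 1 FPKM or more, and 3 on each side of the length minimum. The members and lists were chosen with earlier results of these data known. Lists of genes by symbol were not analysed here, since no entry carries a symbol. Python 3.11.15, pandas 2.3.3, numpy 2.4.6 and scipy 1.17.1 were used.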

Additional observations from a re-analysis of the deposited data

How the results depend on the processing

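The count of 0 calls at long loci, for leading genes and for all tested genes, was also 0 with a q of 0.10 or less, with a length of 500 kb or more, and with q readjusted over those whose mean was 1 FPKM or more; a length of 200 kb or more gave 1 call in each count, XLOC_023510. The median log2 ratio of leading genes was 0.0085 and the share higher with corticosterone 57.2% at 500 kb or more, against 0.019 and 61.7%. Centring on all tested genes gave 0.012 and 57.9%, and turned the ratios of XLOC_023652 (-0.0016) and XLOC_054811 (-0.0060), both near 0. The median size was 0.074 at loci with a single tested gene. The difference from shorter loci of the same level ranged from -0.0034 to 0.0014, so it has no stable sign. The other settings for level, size and the difference between leading and other genes stayed within the 95% interval of the median or share over loci. That interval treats loci as independent, which they are not, and holds no variation among rats. The settings without loci near a called locus, by number of tested genes and by single-gene loci were chosen after seeing the data. No paired analysis was possible because the table holds no values of single animals, and leaving out animals was not run for the same reason. Without the depth of any library, no detection limit can be put on the weakly expressed genes.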
